A study of Mus musculus with 9 samples.

Results

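The genes described here encode 6 small calcium-binding proteins of the EF-hand superfamily, namely calbindin (Calb1), calretinin (Calb2), parvalbumin (Pvalb), oncomodulin (Ocm) and the paired relatives Efhd1 and Efhd2. They were chosen by name, and all 6 were found among the 54232 genes counted. RNA was measured at E14.5 in cochlear ducts dissected from 9 mouse embryos, and each library came from both ears of 1 embryo. The WT embryos (Prdm16 +/+), heterozygotes (Prdm16 cGT/+) and null embryos (Prdm16 cGT/cGT) numbered 3 each and came from matings between heterozygotes on the FVB/NJ inbred background. Prdm16 cGT is a gene trap null allele present in every cell and not driven by a Cre, so Prdm16 was lost from the whole embryo and not from the cochlea alone. The sources used here do not give the sex of the embryos.

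EF-hand proteins hold calcium in a short loop of acidic residues between a pair of helices. Calbindin, calretinin, parvalbumin and oncomodulin are mobile cytosolic buffers that shorten and localize calcium signals, and in the mature inner ear they serve as markers of hair cells, supporting cells and ganglion neurons. Oncomodulin is a close relative of parvalbumin known from outer hair cells. Efhd1 is a mitochondrial calcium-binding protein, and Efhd2, also called swiprosin-1, is a cytosolic protein that binds actin. Kölliker's organ, the columnar epithelium medial to the prosensory domain, is a main site of Prdm16 in the cochlear duct, and it later generates spontaneous calcium waves.

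To show how these genes are related, their coding sequences (GENCODE M21, mm10) were translated and searched for the PROSITE EF-hand loop pattern. It was matched 4 times in Calb1, 5 times in Calb2, 2 times in Pvalb and 2 times in Ocm. It was matched 0 times in Efhd1 and 0 times in Efhd2, whose coding sequences have the same length (720 bases), and this says only that these sequences do not hold that strict pattern. The DNA of a match is printed 5′ to 3′ with capitals on the codons of loop positions 1, 3, 5 and 12, which hold calcium. The Calb1 loops are shown because Calb1 had the steepest fall of the 6 genes. The first Calb2 loop is shown as the closest in Calb2 to the first of Calb1 (29 of 36 bases identical). The loops of Pvalb and Ocm are shown because this pair is alike in sequence (27 and 30 of 36 bases identical in the first and second loop) while only Pvalb gave more than 1 read.
Calb1 loop 1: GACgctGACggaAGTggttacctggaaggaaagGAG
Calb1 loop 2: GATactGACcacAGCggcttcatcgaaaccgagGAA
Calb1 loop 3: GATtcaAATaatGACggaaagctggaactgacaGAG
Calb1 loop 4: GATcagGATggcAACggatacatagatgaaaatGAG
Calb2 loop 1: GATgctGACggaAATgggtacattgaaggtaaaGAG
Pvalb loop 1: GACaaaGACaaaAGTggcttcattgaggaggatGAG
Pvalb loop 2: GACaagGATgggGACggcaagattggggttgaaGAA
Ocm loop 1: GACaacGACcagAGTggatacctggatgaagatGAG
Ocm loop 2: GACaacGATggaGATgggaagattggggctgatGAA

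On mm10 the Calb1 loops lie on the plus strand of chromosome 4, the first across exons 1 and 2 (chr4:15881468-15881983, with an intron inside), the second in exon 5 (chr4:15895644-15895679), the third in exon 7 (chr4:15900781-15900816) and the last across exons 9 and 10 (chr4:15901137-15904279). The Calb2 loop spans exons 1 and 2 on the minus strand (chr8:110156971-110168053). The Pvalb loops lie on the minus strand in exon 2 (chr15:78202526-78202561) and across exons 3 and 4 (chr15:78191693-78201259). Those of Ocm lie on the minus strand in exon 3 (chr5:144024433-144024468) and across exons 4 and 5 (chr5:144020100-144023857).

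Shared loops did not make reads ambiguous between these genes. Of the distinct 50-base stretches (the read length) in the annotated transcripts of Calb1, Calb2, Pvalb, Ocm and Efhd2, 0 occurred in a transcript of another gene. In Efhd1, 208 of 2120 did, all in its antisense neighbour Efhd1os, which had at most 4 counts in any library. How the counting treated strand is not given in the sources used here, so reads from that overlap cannot be assigned to a strand.

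Total counts ranged from 24095322 to 30819118 per library. Levels are given as CPM (deposited counts scaled to a common library size by TMM), and groups as mean ± SD over 3 embryos. A count of 3, taken as the floor of a library, lay between 0.0967 and 0.126 CPM and covers counting error only. A gene was called when its adjusted p in edgeR's quasi-likelihood test, over all genes tested, was under 0.05 and its log2 fold change was beyond 0.5 in size. Prdm16 was at 224.3, 198 and 185 CPM in WT, 151, 123 and 141 CPM in heterozygote and 23.7, 19.1 and 27.4 CPM in null embryos 1, 2 and 3, so the labels matched the targeted gene. As a check of the labelled tissue, 5 epithelial markers summed to between 1833 and 2521 CPM in every library.

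Some libraries stood apart from their group. The summed level of 10 periotic mesenchyme markers was 665.8 CPM in WT embryo 1, 1126 CPM in WT embryo 2 and 1600 CPM in null embryo 3, against 181 to 251.5 CPM in the other libraries. Most of these low sums was Dcn, which was at 118.2 to 182.9 CPM in every library and which the study lists for Kölliker's organ. The sums therefore understate the contrast. Col3a1 of the same list was at 135.9, 287.8 and 498.6 CPM in the 3 high libraries and at most 35.47 CPM elsewhere. Otof, the otoferlin of hair cell synapses, was at 14.02 CPM in WT embryo 3 and 21.2 CPM in null embryo 3 and at most 0.88 CPM elsewhere. Lhx3, a hair cell transcription factor, was at 2.69 and 3.39 CPM in the same embryos and at most 0.322 CPM elsewhere. Null embryo 2 had the highest sum of epithelial markers (2521 CPM, elsewhere at most 2080 CPM) and of roof markers (14340 CPM, elsewhere at most 11590 CPM).

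In null cochlear ducts Calb1 was nearly lost and Efhd1 fell to 25.4% of its WT level. Pvalb had between 65 and 141 counts in every null duct, 41 counts in WT embryo 3 and at most 9 counts in the other WT and heterozygote ducts. Efhd2 was at 130% of its WT level without passing the test. Calb2 stayed close to the floor except in WT embryo 3 and null embryo 3, and Ocm gave 1 count among 241131061. Between null and WT embryos 2 of the 6 genes, Calb1 and Efhd1, were called lower, where 0.786% of 17168 tested genes were, and 0 were called higher, where 0.92% were. Pvalb and Efhd2 were tested and not called, and Calb2 and Ocm were removed by the filter on low counts.

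**Figure D1:**
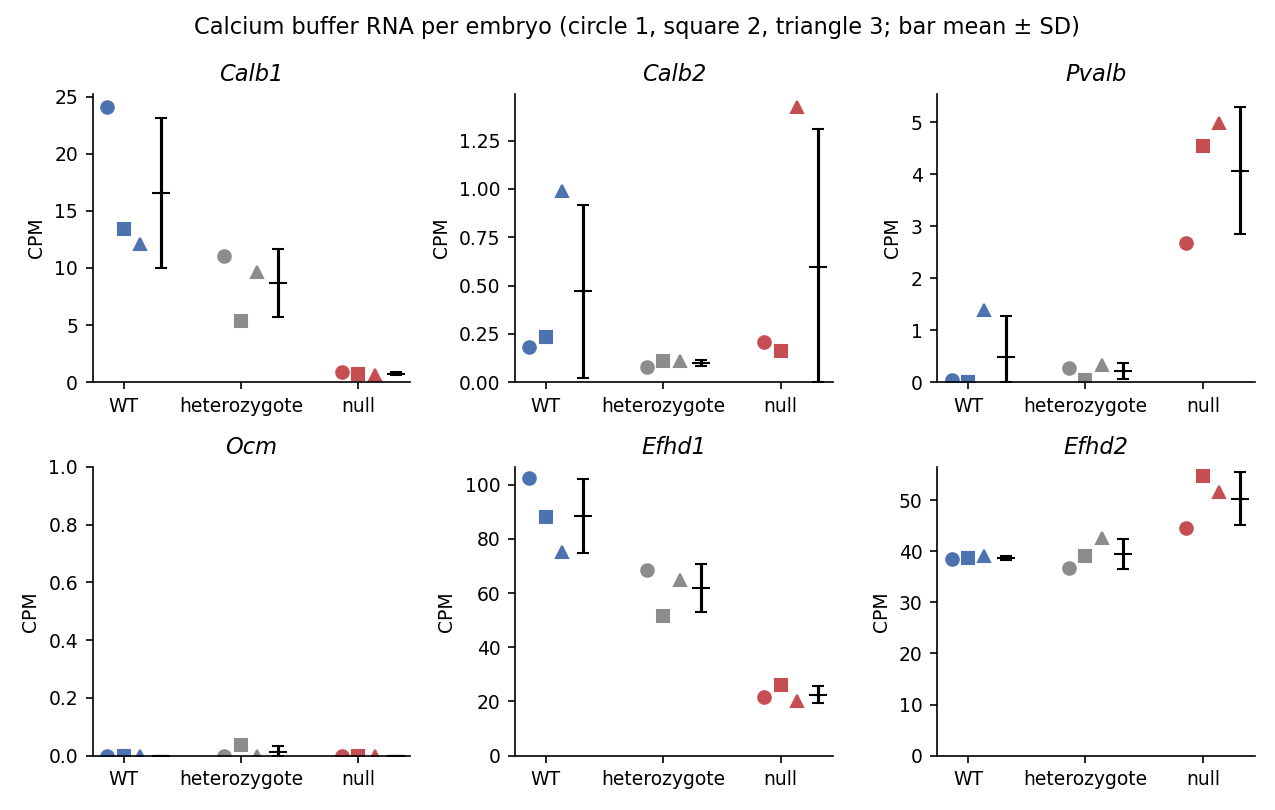
CPM of each gene (linear y axis from 0) in the 3 genotypes (x axis), with 1 symbol per embryo and the mean with its SD, which is not drawn below 0. Calb1 and Efhd1 step down from WT to heterozygote to null, all null embryos have at least 2.68 CPM of Pvalb, and Calb2 is high in 1 WT and 1 null embryo only.

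Calb1, calbindin, is on chromosome 4 (ENSMUSG00000028222, chr4:15881264-15908064, plus strand). It had 653, 341 and 356 counts in WT embryos 1, 2 and 3, which is 24.1, 13.4 and 12.1 CPM. The heterozygotes had 277, 148 and 264 counts, which is 11.1, 5.33 and 9.63 CPM. The null embryos had 21, 23 and 15 counts, which is 0.866, 0.742 and 0.628 CPM. The ranges of the 3 genotypes did not overlap, and every null library was above the floor of 3 counts. The share of all genes with 3 separate ranges was not computed. Null embryos alone lay below WT without overlap in 9.15% of tested genes.

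Mean Calb1 was 16.6 ± 6.58 CPM in WT and 0.745 ± 0.119 CPM in null embryos (SD, n = 3 each), so 4.50% of the WT level was left. The log2 fold change was -4.47 (SE 0.33, 95% confidence interval -5.23 to -3.70, edgeR adjusted p = 0.00145), ranking 9 from the lowest among 17168 tested genes. Leaving out any 1 embryo gave log2 fold changes from -4.64 to -4.08, each called, with edgeR adjusted p of at most 0.013. Without both embryos that had high Otof it was -4.55 (edgeR adjusted p = 0.000308). The mesenchyme sums beside the Calb1 levels of WT embryos 1, 2 and 3 were 665.8, 1126 and 251.5 CPM, and those of null embryos 1, 2 and 3 were 181, 204 and 1600 CPM. The part of mesenchyme in the Calb1 level was not tested.

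Between null embryos and heterozygotes Calb1 was also called lower, with a log2 fold change of -3.54 (SE 0.326, edgeR adjusted p = 0.00508). The heterozygotes averaged 8.68 ± 2.99 CPM (SD, n = 3), 52.4% of WT. The log2 fold change from WT to heterozygote, -0.93 (95% confidence interval -1.61 to -0.25), did not pass the test (edgeR adjusted p = 0.215). It was -0.55 without WT embryo 1, the embryo with the highest Calb1. Calb1 varied more between embryos than Efhd1 or Efhd2, with a coefficient of variation of 39.7% in WT, where Efhd1 had 15.5% and Efhd2 0.869%.

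Efhd1, the mitochondrial member, is on chromosome 1 (ENSMUSG00000026255, chr1:87264363-87310839, plus strand). It was at 102.4, 88.3 and 75.0 CPM in WT embryos 1, 2 and 3. It was at 68.5, 51.7 and 64.9 CPM in heterozygotes and 21.62, 25.99 and 20.00 CPM in null embryos. As with Calb1, the 3 genotypes formed separate ranges, for which no share over all genes was computed. WT embryo 1 had the highest Prdm16, Calb1 and Efhd1 of the 9 libraries.

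Mean Efhd1 fell from 88.6 ± 13.7 CPM in WT to 22.5 ± 3.10 CPM in null embryos (SD, n = 3 each). The log2 fold change was -1.97 (SE 0.147, 95% confidence interval -2.31 to -1.64, edgeR adjusted p = 0.00145), ranking 91 from the lowest. It lay between -2.09 and -1.85 in the fits without 1 embryo, each called (edgeR adjusted p up to 0.0181), and was -2.01 without both embryos with high Otof. Against heterozygotes the log2 fold change of the null embryos was -1.46 (SE 0.139, edgeR adjusted p = 0.00613). That call was lost without heterozygote embryo 1 (-1.37, edgeR adjusted p = 0.0567) and without heterozygote embryo 3 (-1.41, edgeR adjusted p = 0.0609).

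The heterozygote level of Efhd1, 61.7 ± 8.85 CPM (SD, n = 3), was 69.7% of WT. Its log2 fold change of -0.52 (95% confidence interval -0.80 to -0.24) was not called (edgeR adjusted p = 0.0985), but it was called without WT embryo 3 (-0.63, edgeR adjusted p = 0.00712). Prdm16 itself was at 68.2% of WT in the heterozygotes and at 11.6% in null embryos.

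The study's qPCR primers for Efhd1 are shown because they place a second assay on the transcript. The study reported lower Efhd1 (printed there as Ethd1) in null cochleae by qPCR. Both match exon 1 of mm10 chromosome 1 inside the coding sequence, the forward primer at chr1:87264604-87264623 and the reverse primer, which reads the minus strand, at chr1:87264693-87264712. The product of 109 bases lies inside the span of Efhd1os, so it does not separate the strands.
Efhd1 forward: cggactccgaactgaacctc
Efhd1 reverse: aactccgggaactcggtgta

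Efhd2, the actin-binding member, is on chromosome 4 (ENSMUSG00000040659, chr4:141858142-141874920, minus strand), 12.4 Mb from Prdm16 on the same chromosome, where Calb1 lies 138.4 Mb from it. WT embryos 1, 2 and 3 had 38.4, 38.6 and 39.0 CPM, and the heterozygotes 36.7, 39.0 and 42.5 CPM. The null embryos had 44.6, 54.8 and 51.5 CPM, so that every null embryo lay above every other embryo. The WT mean was 38.7 ± 0.336 CPM and the null mean 50.3 ± 5.22 CPM (SD, n = 3 each).

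Compared with WT, Efhd2 in null embryos had a log2 fold change of 0.38 (95% confidence interval 0.15 to 0.61), which did not pass the test (edgeR adjusted p = 0.139). Against heterozygotes it was 0.35 (edgeR adjusted p = 0.268). The 95% confidence interval from WT to heterozygote ran from -0.13 to 0.19 around 0.03 (edgeR adjusted p = 0.902), the narrowest interval among the tested members of the group in that comparison. Separate ranges with the null embryos higher were found in 9.85% of all tested genes, so the separation of Efhd2 was shared by many. With the null embryos lower, as for Calb1 and Efhd1, the share was 9.15%.

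Pvalb, parvalbumin, is on chromosome 15 (ENSMUSG00000005716, chr15:78191114-78206400, minus strand). It had 1, 0 and 41 counts in WT embryos 1, 2 and 3, which is 0.0369, 0 and 1.40 CPM. The heterozygotes had 7, 1 and 9 counts, or 0.28, 0.036 and 0.328 CPM. The null embryos had 65, 141 and 119 counts, or 2.68, 4.55 and 4.98 CPM. Every null embryo was above all other embryos, and 1 WT embryo held nearly all of the WT counts.

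Pvalb passed the filter on low counts only through the null embryos, and a gene that passes in this way had to differ, so its fits against WT and against heterozygotes are given as descriptions. Compared with WT, null embryos had a log2 fold change of 3.04 (SE 1.08, 95% confidence interval 0.54 to 5.54) and was not called (edgeR adjusted p = 0.295). Without WT embryo 3 the fit gave 7.43 (edgeR adjusted p = 0.0115), a value that rests on 1 WT count and on the prior count and from which nothing is read.

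WT embryo 3 and null embryo 3 were the libraries with high Otof and Lhx3. Null embryos 1 and 2 had 2.68 and 4.55 CPM of Pvalb, 0.33 and 0.516 CPM of Otof and sums of 274.1 and 228.6 CPM over the 10 hair cell genes. WT embryos 1 and 2 had 0.0369 and 0 CPM of Pvalb, 0.591 and 0 CPM of Otof and hair cell sums of 249.8 and 222.1 CPM. Most of each sum was Myo6 and Cdh23, at 105.2 and 104.5 CPM in null embryo 1 and 96.63 and 72.41 CPM in null embryo 2. They were at 114.4 and 82.32 CPM in WT embryo 1 and 100.9 and 68.85 CPM in WT embryo 2. Both were high in libraries with little Otof, so similar sums do not show similar hair cell content. Myo7a, a hair cell myosin of the same list, was at 34.5 and 29.2 CPM in null embryos 1 and 2 and 14.4 and 17.8 CPM in WT embryos 1 and 2. The hair cell transcription factors Atoh1 (4.46 and 4.48 CPM in these null, 6.829 and 5.196 CPM in these WT embryos) and Pou4f3 (3.42 and 5.09 CPM, against 8.49 and 5.67 CPM) were lower in the same null embryos, and neither was called. The part of hair cells in the Pvalb level was not tested. The fitted log2 fold change of Pvalb between null embryos and heterozygotes was 4.22 (SE 0.548, edgeR adjusted p = 0.0203). It did not pass the threshold without heterozygote embryo 1 (4.45, edgeR adjusted p = 0.122), without heterozygote embryo 3 (4.68, edgeR adjusted p = 0.106) or when all 9 libraries shared 1 fit (4.23, edgeR adjusted p = 0.124). By pooled counts the 3 null embryos held 19.4 times the heterozygote reads (325 against 17 counts, exact 95% interval 11.9 to 33.7, counting error only).

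**Figure D2:**
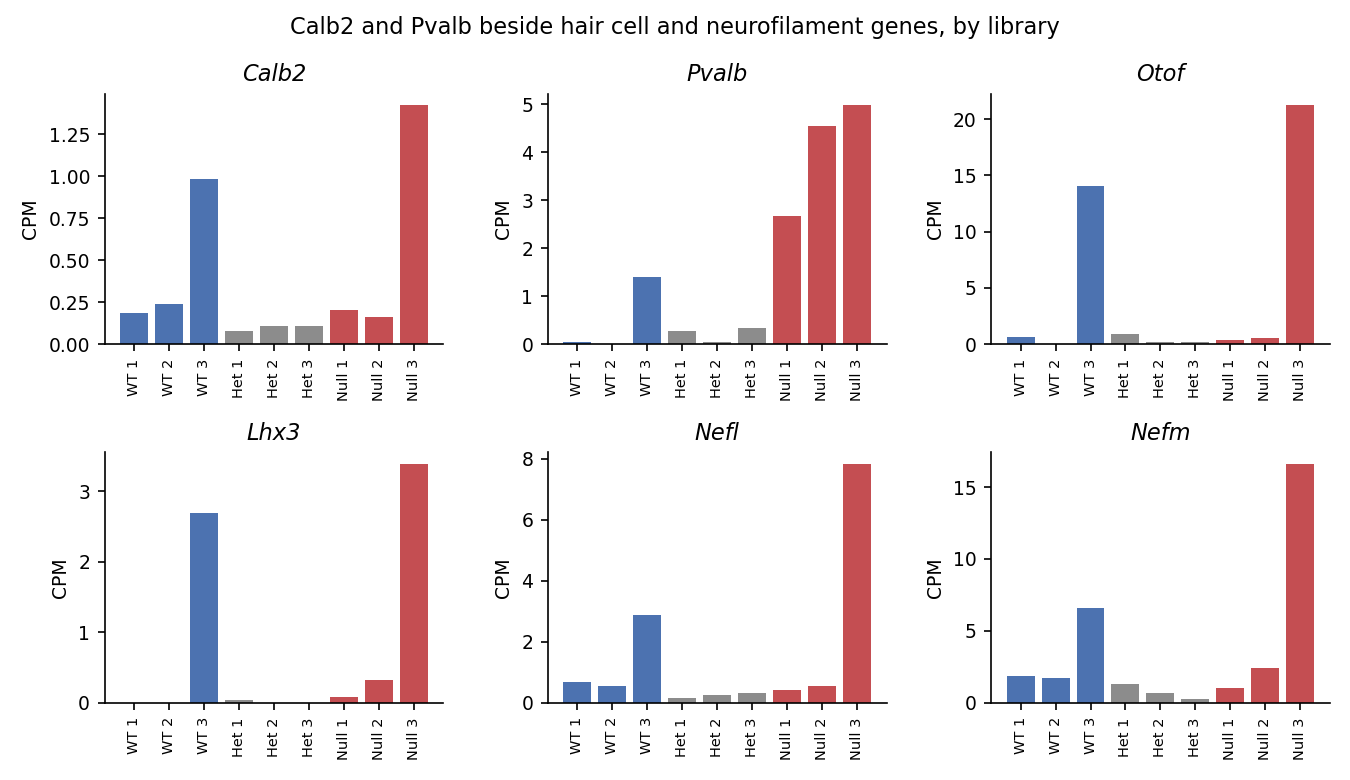
CPM (y axes, linear from 0, each with its own scale) of Calb2, Pvalb, the hair cell genes Otof and Lhx3 and the neurofilaments Nefl and Nefm, with 1 bar per library (x axis; blue WT, grey heterozygote, red null). Every gene but Pvalb is high in WT embryo 3 and null embryo 3 alone, whereas Pvalb is at 2.68 CPM or more in all 3 null embryos and at 1.40 CPM in WT embryo 3.

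Calb2, calretinin, is on chromosome 8 (ENSMUSG00000003657, chr8:110137502-110168210, minus strand). It had 5, 6 and 29 counts in WT, 2, 3 and 3 counts in heterozygote and 5, 5 and 34 counts in null embryos. The values of 0.987 CPM in WT embryo 3 and 1.42 CPM in null embryo 3 stood above the others, which were 0.236 CPM at most. These were again the libraries with high Otof, and they also had the highest Nefl (2.86 and 7.83 CPM, elsewhere at most 0.665 CPM), a neurofilament gene. The sum of the 12 ganglion neuron genes was 303.4 CPM in WT embryo 3 and 218.7 CPM in null embryo 3, but Isl1 alone made up 268.9 and 175 CPM of it. The part of hair cells or neurons in the Calb2 level was not tested.

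Calb2 was too low for the main test in all 3 comparisons. In the edgeR fit with no filter it had a log2 fold change of 0.31 between null and WT (adjusted p = 0.912), -2.20 from WT to heterozygote (adjusted p = 0.0756) and 2.51 between null and heterozygote (adjusted p = 0.179). The coefficient of variation of Calb2 was 95.7% in WT and 120% in null embryos.

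Ocm, oncomodulin, is on chromosome 5 (ENSMUSG00000029618, chr5:144019804-144026670, minus strand). It had 0 counts in 8 libraries and 1 count in heterozygote embryo 2. At 0 counts the floor of each library, 0.0967 to 0.126 CPM, is the upper limit. Ocm did not pass the filter in any comparison.

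**Figure D3:**
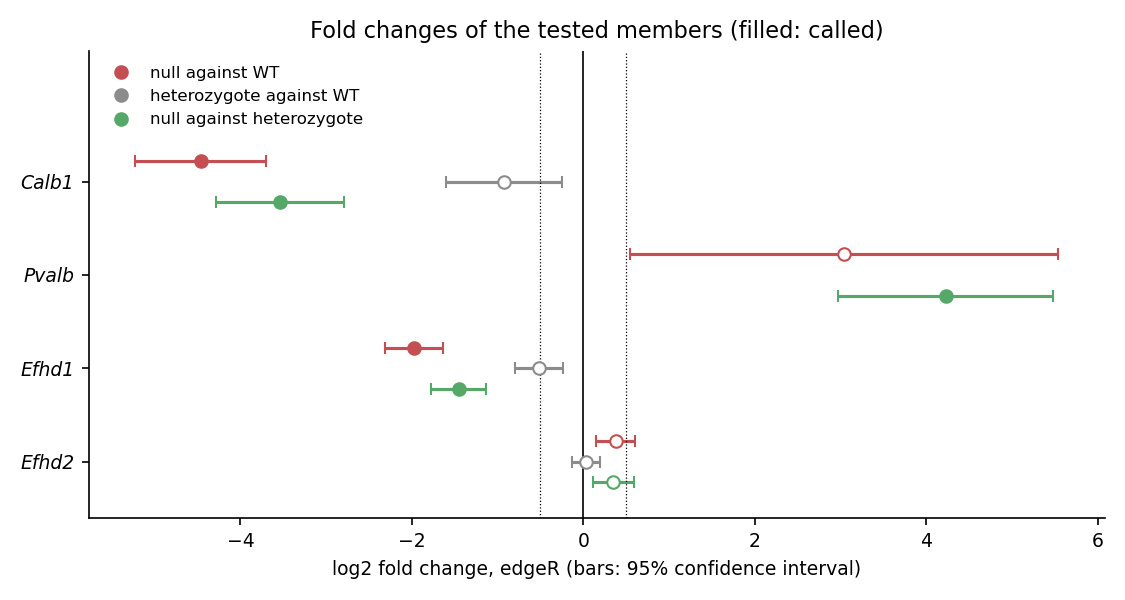
Log2 fold change (x axis) of the tested genes (rows) with its 95% confidence interval from edgeR's quasi-likelihood fit, in red for null against WT, grey for heterozygote against WT and green for null against heterozygote, filled where called, with dotted lines at 0.5 on either side of 0. Between null and WT the Calb1 and Efhd1 intervals end at -3.70 and -1.64, and the Pvalb interval of 0.54 to 5.54 is the widest drawn.

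The heterozygote comparison asked whether 1 trapped copy already changes these genes. Of the 3 tested, Calb1, Efhd1 and Efhd2, 0 were called in the main edgeR fit, against 0.0984% of 17269 genes called lower and 0.0521% called higher. Calb1 and Efhd1 had an unadjusted p under 0.05, as 13.1% of all tested genes did, and DESeq2 called Efhd1 lower. In edgeR both were called lower with no filter on low counts (adjusted p = 1.98e-08 for Calb1 and 5.26e-12 for Efhd1). Those settings called more of all genes lower as well, 244 of 17269 in DESeq2 and 575 of 32010 with no filter. With replicate number as a block, edgeR also called Calb1 and Efhd1 lower (adjusted p = 0.0465 and 0.0356), with 165 of 17269 genes lower. In 1 edgeR fit of all 9 libraries neither was called (adjusted p = 0.686 and 0.624). The WT and heterozygote ranges of Calb1 and Efhd1 did not overlap, as in 9.5% of all tested genes with heterozygotes lower and 8.46% with heterozygotes higher. Between null embryos and heterozygotes, Calb1 and Efhd1 were called lower out of 4 tested, where 0.322% of 17067 genes were. Pvalb met the thresholds for a higher call, as 0.293% of genes did, but nothing is read from this because the filter on low counts passed it through the null embryos alone. The ranges of null embryos and heterozygotes were separate for Calb1 and Efhd1, as in 8.84% of all tested genes with null embryos lower, and for Efhd2, as in 9.24% with null embryos higher. The comparisons share libraries, so they are not independent of each other.

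Levels of different genes were set side by side per length, as counts divided by exon length and scaled to a common total (TPM scale). In WT ducts Efhd1 was the highest at 178 ± 27.5, followed by Efhd2 at 69.3 ± 0.602 and Calb1 at 14.6 ± 5.79 (SD, n = 3). These 3 ranges did not overlap. Pvalb (0 to 5.72) and Calb2 (0.452 to 2.42) overlapped each other below them, and Ocm was at 0.

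In null ducts the order on the same scale was different. Efhd2 led with 90.1 ± 9.36, above Efhd1 with 45.3 ± 6.22 and Pvalb with 16.7 ± 5.01 (SD, n = 3), again with separate ranges. Calb1 (0.553 to 0.763) and Calb2 (0.395 to 3.48) overlapped. In heterozygotes the order of the first 3 genes was as in WT, with means of 123.9 for Efhd1, 70.6 for Efhd2 and 7.64 for Calb1.

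The sum over the 6 genes on this scale was 239.4 to 296.3 in WT, 179 to 216.6 in heterozygote and 135.5 to 170 in null embryos, in separate ranges. Efhd1 made up 62.9% to 69.4% of it in WT and 25.59% to 32.03% in null ducts. Efhd2 made up 23.2% to 29.2% in WT and 57.7% to 58.9% in null ducts, and Calb1 4.46% to 7.16% and 0.352% to 0.563%. Pvalb made up 8.11% to 13.0% of the null sum and at most 2.39% of any WT sum. The ratio of Efhd2 to Efhd1 was 0.335, 0.390 and 0.465 in WT, 0.477, 0.673 and 0.585 in heterozygote and 1.84, 1.88 and 2.30 in null embryos. It was therefore below 1 in every WT and heterozygote duct and above 1 in every null duct, which is a description without a test, since its parts were tested above.

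**Figure D4:**
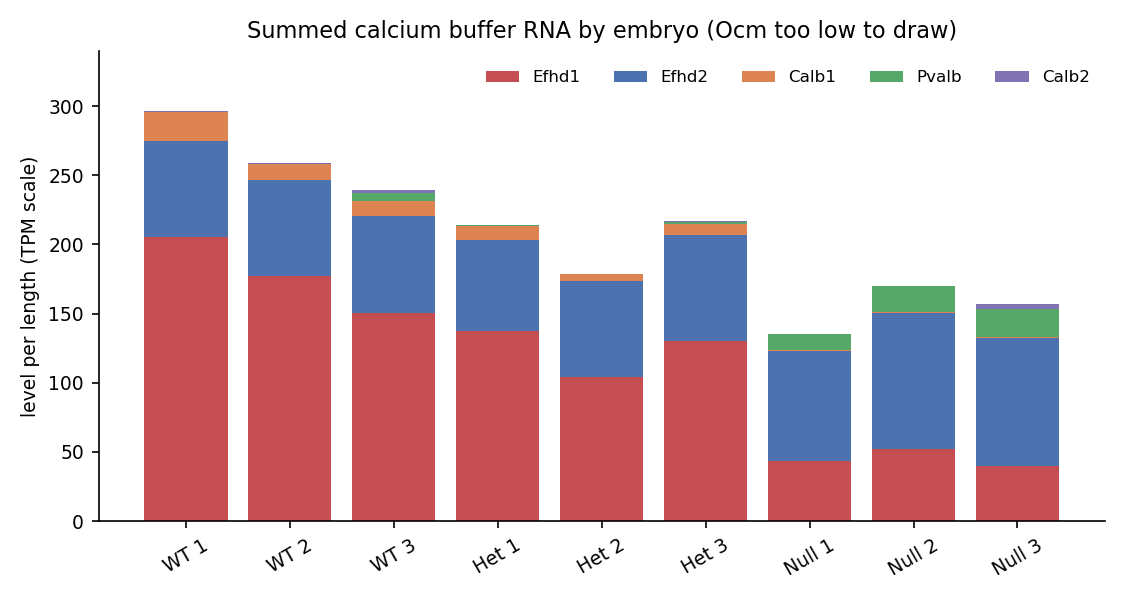
Summed level of the 6 genes per length (TPM scale, y axis from 0) in each of the 9 libraries (x axis), stacked by gene. The sum lies between 239.4 and 296.3 in WT and between 135.5 and 170 in null embryos, where Efhd2 is the largest layer.

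Genes whose pattern over the 9 libraries was most like that of Calb1, Efhd1 or Pvalb were found by the root mean square distance between centred log2 CPM profiles, among 14800 genes. Closest to Calb1 were Upp1, a uridine phosphorylase, at a distance of 0.32, then Gm35835 (0.36), Gm13781 (0.50), Mx1 (0.50) and 2410124H12Rik (0.57), where a flat profile lay 1.88 away. Upp1 was at 20.8, 11.4 and 1.26 CPM in the WT, heterozygote and null means. Closest to Efhd1 were Clic6 (0.16), Sh3bgrl2 (0.21), Pou3f2 (0.21), Pla2r1 (0.22) and Ptk2b (0.22), with a flat profile at 0.85. Clic6, a chloride channel gene, was at 273.9, 242.1 and 80.7 CPM in the same means.

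For Pvalb, whose distances also hold the counting noise of libraries with 0 to 9 counts, the nearest genes were Hydin (1.10), a gene of motile cilia, Corin (1.24), Rbpjl (1.27), Chst5 (1.36) and Pcp4 (1.37), with a flat profile at 2.27. These distances are a description over 9 libraries that share their genotypes.

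The wider calcium machinery was read from 4 lists with 93 genes, of which 81 were tested between null and WT. In edgeR 0 of them were called in that comparison, where 1.71% of all tested genes were called in either direction. At an unadjusted p under 0.05, 7 were lower and 8 higher, or 18.5% of those tested against 12.2% of all genes. DESeq2 called 1 lower (Cacna2d3) and 1 higher (Atp2b4), and limma-voom 0 in either direction.

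The list of other EF-hand buffers and sensors had 36 tested genes between null and WT. Their log2 fold changes were positive in 28 and negative in 8, with a median of 0.17 against 0.01 over all tested genes. Of all 17168 tested genes, 8912 were positive. The 3 with the smallest p were Rcn1, a reticulocalbin of the endoplasmic reticulum (621 ± 58.1 CPM in null, 479 ± 16.6 CPM in WT, log2 fold change 0.37, edgeR adjusted p = 0.125), the neuronal Necab1 (1.37, edgeR adjusted p = 0.236) and Calml4 (0.42, edgeR adjusted p = 0.247). Necab1 was below 1 CPM in every library.

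Among the 13 calcium pumps and exchangers, log2 fold changes of the same comparison had a median of -0.08. Atp2b1, a plasma membrane calcium pump, was at 476.9, 468.5 and 482 CPM in WT and 431.4, 295.5 and 349.2 CPM in null embryos (-0.41, edgeR adjusted p = 0.243). Atp2b4, another pump of that family, was at 67.1 ± 19.2 CPM in null and 45.0 ± 2.75 CPM in WT embryos (SD, n = 3; 0.57, edgeR adjusted p = 0.251), and Atp2c2, a secretory pathway pump, had -0.35 (edgeR adjusted p = 0.364).

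Among 18 tested genes of calcium stores and mitochondrial calcium the median was 0.02, and the smallest p values were those of the ryanodine receptor Ryr3 (-1.19, edgeR adjusted p = 0.246), the store sensor Stim2 (0.17, edgeR adjusted p = 0.461) and Smdt1 (0.23, edgeR adjusted p = 0.528), a subunit of the mitochondrial uniporter. Among 14 voltage-gated channel subunits the median was -0.05. Cacna2d3 was at 7.30 ± 1.25 CPM in null and 11.4 ± 1.14 CPM in WT embryos (SD, n = 3; -0.64, edgeR adjusted p = 0.162), and Cacnb4 had -0.45 (edgeR adjusted p = 0.367).

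Cacna1e, an R-type channel subunit, was at 29.3, 35.9 and 3.51 CPM in WT and 2.85, 3.03 and 9.84 CPM in null embryos (-2.14, edgeR adjusted p = 0.337). Its high values were in WT embryos 1 and 2 and null embryo 3, the libraries with high mesenchyme markers. The summed endothelium markers (78.6, 63.9 and 45.5 CPM, elsewhere at most 6.09 CPM) and leukocyte markers (17.8, 22.6 and 11.2 CPM, elsewhere at most 4.20 CPM) were high in the same libraries, and the part of these cell types was not tested. Without WT embryo 3 and null embryo 3, Cacna1e and Ncald, a neuronal calcium sensor, were called lower in null embryos. Ncald was at 4.21, 4.17 and 1.84 CPM in WT and 1.61, 1.61 and 5.27 CPM in null embryos, high in the same libraries. That fit compares WT embryos with mesenchyme sums of 665.8 and 1126 CPM with null embryos at 181 and 204 CPM.

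Between heterozygote and WT embryos 80 genes of the lists were tested and edgeR called 0. At an unadjusted p under 0.05, 13 were lower and 4 higher, or 21.2% of those tested against 13.1% of all genes. In the same comparison DESeq2 called 2 lower (Cacna1e and Cacna1c), and limma-voom called 0. Cacna1c, an L-type channel subunit, was at 7.75, 11.0 and 3.85 CPM in WT and 3.56, 4.07 and 3.57 CPM in heterozygotes, so WT embryo 3 lay among the heterozygotes. Null embryos had 5.86, 2.97 and 20.6 CPM of Cacna1c, so that its highest values were also in null embryo 3 and WT embryos 2 and 1. By list, the smallest p values belonged to Chp1 (-0.23, edgeR adjusted p = 0.187) and Calu (-0.14, 0.245) among EF-hand genes. Among pumps they belonged to Atp2b2 (0.26, edgeR adjusted p = 0.142), Atp2b3 (-1.37, 0.151) and Atp2c2 (-0.21, 0.384). Among store genes they belonged to Itpr3, an IP3 receptor (-0.42, edgeR adjusted p = 0.0904), Ryr1 (0.32, 0.215) and Ryr3 (-0.78, 0.281). Among channels they belonged to Cacnb3 (0.21, edgeR adjusted p = 0.0684), Cacna1e (-2.79, 0.0938) and Cacna1g (-0.71, 0.194).

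Between null embryos and heterozygotes 80 were tested and edgeR called 0, with 2 lower and 7 higher at an unadjusted p under 0.05, or 11.2% of those tested against 11.4% of all genes. DESeq2 and limma-voom each called 0. The EF-hand list had a median log2 fold change of 0.21, with 30 of 36 positive, where 8928 of all 17067 tested genes were. Its smallest p values were those of the calcineurin subunit Ppp3r1 (0.35, edgeR adjusted p = 0.169), Rcn1 (0.30, 0.286) and Hpcal1 (0.33, 0.347). Among pumps they were those of Atp2b1 (-0.47, edgeR adjusted p = 0.226), Atp2b4 (0.50, 0.376) and Atp2c1 (-0.19, 0.452). Among store genes they were those of Ryr1 (-0.40, edgeR adjusted p = 0.346), Stim1 (0.22, 0.460) and Smdt1 (0.19, 0.543). The channel list gave Cacna1c (1.39, edgeR adjusted p = 0.441), Cacna2d3 (-0.47, 0.447) and Cacna2d2 (-0.42, 0.453). For Cacna1c null embryo 3 had 20.6 CPM, against 5.86 and 2.97 CPM in null embryos 1 and 2.

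**Figure D5:**
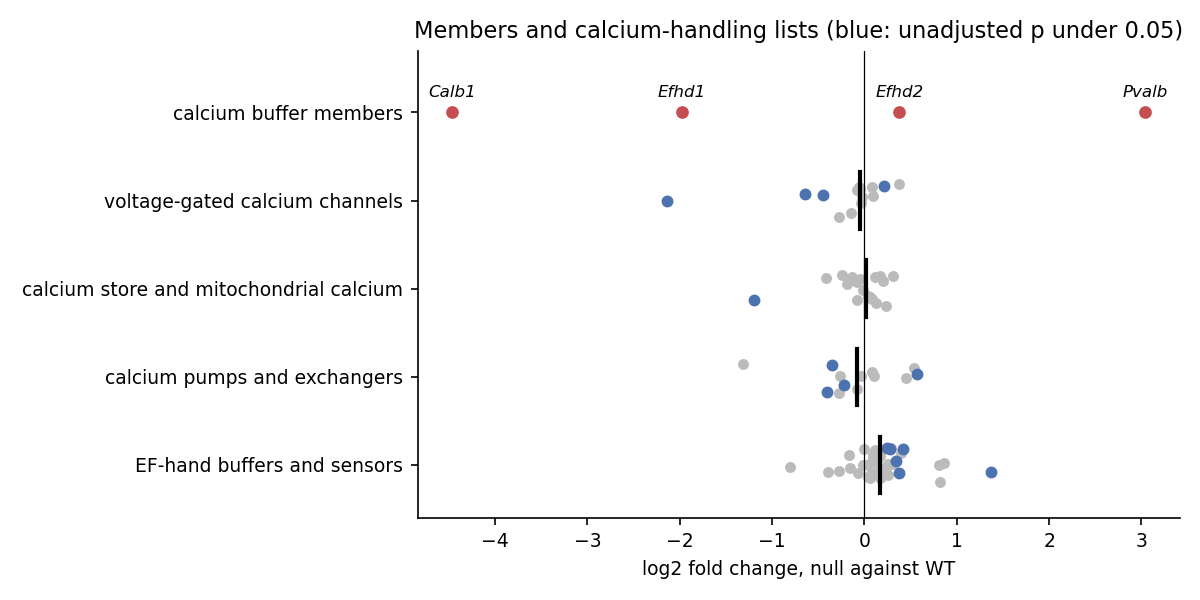
Log2 fold change between null and WT embryos (x axis) of the 4 tested calcium buffer genes (red) and of the tested genes in the 4 calcium-handling lists (rows), 1 point per gene, blue where the unadjusted p is under 0.05, with a black bar at each list median. The EF-hand points lie mostly to the right of 0 (28 of 36, median 0.17, where 8912 of all 17168 tested genes are positive), and edgeR called no gene of the lists.

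Because whole ducts were sequenced, fewer cells of a type and less RNA per cell cannot be told apart. Of 8 genes listed for Kölliker's organ, which include Prdm16 and were partly chosen by the study from these libraries, 7 were called lower between null and WT, where 0.786% of all tested genes were. Their sum was 3788 to 4701 CPM in WT, 3496 to 4384 CPM in heterozygote and 1920 to 2201 CPM in null embryos. Most of that sum was Tecta, which encodes a tectorial membrane protein (2610 to 3220 CPM in WT, 1391 to 1641 CPM in null embryos, log2 fold change -0.93). The other log2 fold changes in the list ran from -3.12 for Prdm16, -2.16 for Itga8 and -1.77 for Clic6 to -0.003 for Tmod1, which was not called, beside -4.47 for Calb1 and -1.97 for Efhd1. The study's single-cell data from WT ducts at E14.5 list Efhd1 among the genes enriched in Kölliker's organ. The part of this cell population in the levels of Calb1 and Efhd1 was not tested.

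Of 8 prosensory genes 3 (Fgf20, Lfng and Cdkn1b) were called higher, where 0.92% of all tested genes were. The study had named these 3 as upregulated from the same libraries, so the count is no independent result. The sums were 910.1 to 997.6 CPM in WT and 1089 to 1384 CPM in null embryos. Of 9 tested hair cell genes Myo7a alone was called, higher in null embryos, and the list's sum was 222.1 to 307.5 CPM in WT and 228.6 to 390.3 CPM in null embryos. Myo6 and Cdh23 made up most of that sum. Among 9 tested genes of ganglion neurons Stmn2 was called lower, while the neuroblast genes Neurod1 and Neurog1 were at most 0.146 and 0.0825 CPM. Skeletal muscle, which makes much parvalbumin, had summed markers of 2.24 to 3.78 CPM in every library. In the remaining lists (8 lists with 46 tested genes, skeletal muscle among them) edgeR called 0, with 5 at an unadjusted p under 0.05, and DESeq2 called 2 (Oc90 and Hbb-bt). The part of these cell types in the Efhd2 level was not tested either.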

How the data were processed

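The study made TruSeq mRNA libraries, aligned their 50-base single reads to mm10 by STAR, and named Cufflinks for annotation and DESeq2 for testing. The submitters' processing notes also list cutadapt 1.13 and HTSeq 0.6.1p1. The deposited table holds unnormalized read counts for each Ensembl gene in each embryo. The annotation release and strand setting are not given in the sources used here. Each replicate is a separate embryo, and no 2 libraries of a genotype agreed within sampling noise (chi-square per gene of at least 5.31). The null embryos differed most among themselves, with 33.45, 39.35 and 61.8 for their pairs. Pairs of WT embryos had 12.33 to 16.19 and pairs of heterozygotes 5.307 to 12.74.

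Symbols, positions and sequences were taken from GENCODE M21 (mm10), and the Efhd1 primers from the study's list of oligonucleotides. Counts were filtered by filterByExpr (minimum count 10), scaled by TMM and tested for each pair of genotypes with edgeR 4.0.16 (R 4.3.3) in the quasi-likelihood test with Benjamini-Hochberg adjustment over all genes tested. The fits were tested on simulated data. Alternatives were DESeq2 1.42.0, limma-voom (limma 3.58.1), other scaling, other filters (none, or a mean count over 100), all 9 libraries in 1 fit, a replicate block and leaving out each embryo. A fit without WT embryo 3 and null embryo 3 was added after seeing the data. Log2 CPM for profiles used a prior count of 2.

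The members and gene lists were chosen with earlier results of these data known. Genes named were the 6 members, Prdm16, listed calcium genes called or among the 3 smallest p per list (1 such gene is not reported here), and, for each called member, the 5 genes of mean CPM of 1 or more with the closest profile. Marker genes and Ncald were named after their values were seen, as were the genes called only under an alternative. With 3 against 3 embryos, an exact permutation test cannot go below 0.1, so it was not used.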

Additional observations from a re-analysis of the deposited data

How the results depend on the processing

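Calb1 and Efhd1 were called lower between null and WT in all 8 fits that kept every embryo (edgeR, DESeq2 or limma-voom adjusted p up to 0.00791 and 0.00926) and in the 6 that left 1 out. Over those 6 fits the null and WT comparison gave Pvalb from 2.49 to 7.43 and 0 to 1 genes called higher. The 1 gene was Pvalb in the fit without WT embryo 3, from which nothing is read. With every embryo kept, Pvalb was 5.02 in limma-voom (adjusted p = 0.0863) and 4.13 with the replicate block (edgeR adjusted p = 0.26), against 3.04. Without both WT embryo 3 and null embryo 3 that comparison gave Pvalb 7.26 (edgeR adjusted p = 0.00131), 1 gene called higher and 2 list genes called lower. The gene called higher was Pvalb, with 206 null counts against 1 WT count. It passed the filter through the null embryos alone, so nothing is read from this value or call either. With every embryo kept, DESeq2 called 1 list gene lower and 1 higher between null and WT, and gave Efhd2 its lowest adjusted p (0.0307) with a log2 fold change under the threshold of 0.5. Between heterozygote and WT, DESeq2 called 1 of the 6 genes lower (Efhd1, -0.52, adjusted p = 0.000359) and 2 list genes. With no filter 2 were called lower (Calb1 -0.93, edgeR adjusted p = 1.98e-08, and Efhd1 -0.52, edgeR adjusted p = 5.26e-12) with 4 list genes. Leaving out 1 embryo gave 0 to 1 called, 0 to 4 list genes lower, Calb1 from -1.14 to -0.55, Efhd1 from -0.63 to -0.40 and Efhd2 from -0.027 to 0.08, negative without heterozygote embryo 3. The 1 gene, Efhd1, and the 4 list genes were called without WT embryo 3. All 9 libraries in 1 fit gave adjusted p of 0.686 for Calb1 and 0.624 for Efhd1. Between null and heterozygote, 0 genes were called higher with a mean count over 100, where Pvalb was not tested, and 0 with all 9 libraries in 1 fit (Pvalb 4.23, adjusted p = 0.124). Leaving out 1 embryo gave 1 to 2 called lower, 0 to 1 called higher, Efhd1 from -1.57 to -1.37 and Pvalb from 3.72 to 4.68. The cause of these changes was not tested. Efhd2 was at 52.75 on the TPM scale in WT when each gene's longest transcript gave the lengths, through the common total, since its own length is the same. Replicate numbers did not pair the embryos, with same-number correlations from -0.33 to 0.23 and not every sample closest to its own number. With the replicate block, heterozygote against WT gave 2 genes lower (Calb1 -0.92, edgeR adjusted p = 0.0465, and Efhd1 -0.51, edgeR adjusted p = 0.0356) and 1 list gene lower. Over all genes the block gave 68 lower and 65 higher between null and WT (135 and 158 without it), 165 and 32 between heterozygote and WT (17 and 9) and 30 and 22 between null and heterozygote (55 and 50). DESeq2 called 280 and 329, 244 and 54, and 165 and 195 in the same order, no filter 209 and 267, 575 and 109, and 139 and 227, and the fit of all 9 libraries 208 and 260, 0 and 0, and 85 and 79. Depth limits Ocm, with 1 count in all, and the heterozygote values of Calb2, with 2 or 3 counts each.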
